A study of Mus musculus with 12 samples.

Results

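The genes described here encode the proteins of the cytosolic ribosome, the particle that translates nuclear-encoded mRNA. They were chosen by symbol alone: Rpl or Rps followed by a number, with an optional letter or paralog mark, plus Rplp0, Rplp1, Rplp2 and Rpsa, and without S6 kinases or symbols marked as pseudogenes. Of the symbols listed, 87 followed this pattern, and 86 of them had per-sample values among 18086 genes that did; Rpl39l was the symbol without values. All 86 passed the filter on low counts, which left 17012 genes for testing. By the table's own annotation 80 of them are protein-coding: 43 genes of the large subunit, 31 of the small subunit, 3 of the ribosomal stalk and 3 paralogs (Rpl7l1, Rpl22l1 and Rps27l). The other 6 (Rps3a2, Rps3a3, Rps4l, Rps12l1, Rpl6l and Rpl32l) carry a gene-like symbol but are annotated as processed pseudogenes, and are described apart. The 86 genes lie on 19 chromosomes, with 15 of them on chromosome 7.

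The measurements are bulk RNA-seq of epididymal white adipose tissue, the visceral fat pad attached to the epididymis, from 12 male mice 12 to 14 weeks old. The strain is C57bl6 in the sample labels and C57BL6/J in the design text, with no engineered allele in any group. After 70% partial hepatectomy, tissue was taken at day 3 (5 mice) and at day 7 (3 mice), and 4 mice had sham surgery, in which the abdomen was opened and no liver removed. The sampling day of the sham mice is not given, and their source label places them before hepatectomy. No animal gave more than 1 library, and animal and technical variation are held together in the spread. Library totals lay between 13128832 and 23474247 counts. All 10 adipocyte markers examined were measured, among them the adipokine genes Adipoq and Lep, and 0 of 8 markers of germ cells and epididymis had values.

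A ribosome holds a single copy of nearly every one of these proteins, so cells make them in matched amounts. Much of that matching is done at translation: ribosomal protein mRNAs are the main class of TOP mRNAs, whose first base is a cytosine followed by an unbroken run of pyrimidines (the terminal oligopyrimidine tract). The kinase complex mTORC1 and the RNA-binding protein LARP1 act on that tract, releasing the mRNAs to ribosomes when nutrients are plentiful and holding them back when they are not. Translation was not measured here, and an mRNA level is not a measure of the protein made.

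The tract can be seen in the sequence around the annotated start sites. RefSeq promoter sequences (build GRCm38.p6) were at hand for 61 of the 86 genes, with 72 annotated starts. In 14 of these genes a start began with C and at least 4 further pyrimidines on the gene's own strand. That is 19.4% of the starts of the 61 genes, against 2.5% of the 32851 starts of all genes. Among the 14 is Rpl32l, an annotated processed pseudogene, with a tract of 10 bases. The windows below span 15 bases before the annotated start and 15 from it, with the tract at the start in capitals. They are given for 7 of those genes, drawn from the large subunit, the small subunit and the stalk, with tracts of 5 to 13 bases. The windows of the 3 paralogs and of Rpl5 and Rplp0, which the results below turn on, are shown for contrast and have no tract at exactly this base.
Rps6 (small subunit), chr4:86857353-86857382, minus strand: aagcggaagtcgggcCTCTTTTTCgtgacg
Rps27 (small subunit), chr3:90213634-90213663, minus strand: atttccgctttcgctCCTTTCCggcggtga
Rpl15 (large subunit), chr14:18270972-18271001, minus strand: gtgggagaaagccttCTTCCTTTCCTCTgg
Rpl35 (large subunit), chr2:39005117-39005146, minus strand: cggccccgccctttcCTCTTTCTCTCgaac
Rpl28 (large subunit), chr7:4792950-4792979, plus strand: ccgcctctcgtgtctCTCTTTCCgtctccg
Rpl38 (large subunit), chr11:114668565-114668594, plus strand: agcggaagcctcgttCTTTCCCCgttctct
Rplp2 (stalk), chr7:141447636-141447665, plus strand: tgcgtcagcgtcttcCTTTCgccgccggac
Rpl5 (large subunit), chr5:107900513-107900542, plus strand: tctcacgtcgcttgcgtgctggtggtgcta
Rplp0 (stalk), chr5:115559452-115559481, plus strand: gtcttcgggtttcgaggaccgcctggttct
Rpl22l1 (paralog), chr3:28805493-28805522, plus strand: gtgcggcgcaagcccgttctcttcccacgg
Rpl7l1 (paralog), chr17:46782642-46782671, minus strand: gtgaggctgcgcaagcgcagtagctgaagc
Rps27l (paralog), chr9:66946071-66946100, plus strand: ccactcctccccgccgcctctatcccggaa

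The tract was 13 bases long in Rpl15 and 5 bases in Rplp2 and Rps21, the longest and the shortest of the 14. A start annotated a few bases away from the one in use hides a tract, so the share counts annotations and not TOP mRNAs. In the 300-base promoter windows, 250 bases before the start and 50 after it and read on both strands, CCGGAA, the core that ETS factors such as GABP bind, was present in 48.6% of ribosomal protein starts and 14.9% of all starts. GGGCGG, the SP1 box, was present in 61.1% and 35.7%. AAGATGG, a YY1 motif, was present in 16.7% and 6.3%, and TATAAA in 11.1% and 13.6%. Each figure counts letters in a window and no factor's binding was measured.

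Counts of ribosomal protein genes need care because their mRNAs have been copied into the genome many times as retrocopies, intron-less pseudogenes that can be almost identical to the parent mRNA. Of 1645 annotated pseudogenes with values and a transcript sequence, 473 matched one of the protein-coding genes over at least 100 bases at 80% identity or more. At least 1 retrocopy was found for 77 of the 80 genes, and Rpl8 and Rpl41 were among those with none. Of the 473, 5 are themselves among the 86 genes (Rps3a2, Rps3a3, Rps12l1, Rpl6l and Rpl32l), and these are left out of the retrocopy sums below. For 41 of the 80, more counts stood at the other retrocopies than at the gene itself, as the plot of counts at genes and at retrocopies shows. With those 5 included the number was 42, since the copies of Rps3a1 then held 568 CPM (counts relative to the scaled library total) over the 12 libraries and the gene 529 CPM. Rpl23a held 1.10% of its joint counts, Rpl5 2.10%, Rpl24 3.32%, Rpl12 3.40% and Rpl37 5.12%. The retrocopy Gm15500 is identical to Rpl5 over 1018 aligned bases and averaged 779 CPM over the 12 libraries, against 16.96 CPM at Rpl5.

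**Figure D1:**
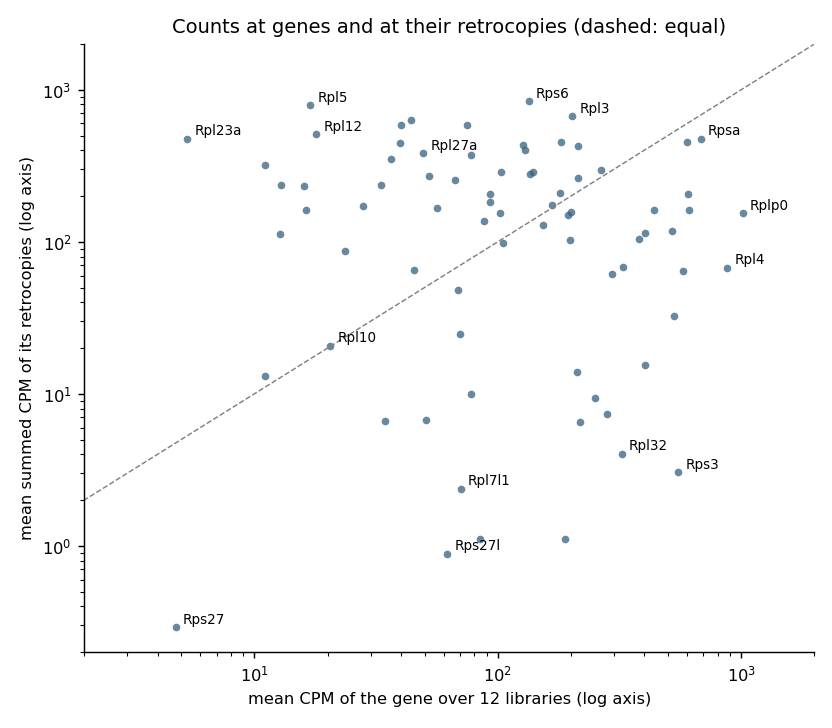
Mean CPM over 12 libraries of each protein-coding ribosomal protein gene with a matched retrocopy (horizontal, log axis) and mean summed CPM of its retrocopies, without those that are among the 86 genes (vertical, log axis), 1 point a gene, with the dashed line at equal levels. Genes above the line, 41 of 80, such as Rpl5, Rpl12 and Rpl23a, have more counts at these copies than at the gene; Rplp0, Rpl4, Rps3 and Rpl32 lie well below it.

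Many of the deposited counts of these genes were not whole. Of the values of the 86 genes, 83.3% lay more than 0.05 from a whole number, which a count of whole reads cannot, against 15% for other protein-coding genes and 63.7% for the non-member retrocopies. The genes whose values were whole in every library were Rps27l, Rps21 and Rps4l. How reads were split between a gene and its copies is not given in the sources used here, so a level or difference of a gene with an abundant retrocopy is uncertain. For the genes named for a difference, the value with retrocopies added is given where it moved by over 1.5 times.

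Levels compared between genes are per kilobase of a transcript of middle length. The ranks and ranges depend on that length. It was 2045 bases for Rpl5 and 854 bases for Rplp0, whose retrocopy Gm8730 aligned over 954 bases. Rplp0, the stalk base, stood highest at 1190 CPM per kb, followed by Rpl13a, a large subunit protein often used as a reference gene in PCR, at 1170 CPM per kb. Rpl5, which joins the ribosome as a complex with 5S rRNA, stood lowest at 8.29 CPM per kb. The range was 144-fold around a median of 156 CPM per kb. In CPM without length, Rps27 (4.76 CPM) and Rpl23a (5.28 CPM) were among the genes below Rpl5 (16.96 CPM). With retrocopies added the range was 122-fold, from 11.2 CPM per kb (Rps27) to 1370 CPM per kb (Rplp0), and the median was 488 CPM per kb. Rpl5 then stood at 394 CPM per kb and Rpl23a at 861 CPM per kb, where the gene alone had 9.43 CPM per kb. For Rps27 all 12 values were not whole, though its matched retrocopies held only 0.291 CPM. Copies not annotated as processed pseudogenes were not searched, so the level of Rps27 is uncertain.

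Some libraries stood apart from their labels or groups. In day 3 library 1 Xist, the RNA of an inactive X chromosome, was at 359 CPM (at most 1.83 CPM elsewhere) and the Y-linked Ddx3y at 0.643 CPM (81.1 CPM or more elsewhere), which goes against the male label. Sham library 4 held 2320 CPM of the hepatocyte gene Alb, against at most 192 CPM in any other library. Across genes, day 3 library 5 correlated better with the sham libraries (mean 0.926) than with its own group (0.894), and day 7 library 1 better with day 3 libraries (0.908) than with its own (0.869). Day 7 libraries 2 and 3 also correlated better with sham (0.916 and 0.918) than with their own group (0.892 and 0.905), so no day 7 library was nearest to its own group. Main results are given also without 2 pairs of libraries, day 3 library 5 with day 7 library 1, and sham library 4 with day 3 library 1. Both pairs were left out after the data were seen, and leaving out day 3 library 5 and day 7 library 1, which lie nearer to other groups, widens differences between groups by construction. For most ribosomal protein genes they were also the lowest day 3 library and the highest day 7 library.

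The ribosomal protein genes moved together from mouse to mouse, and mice of one group spread further apart than the group means did. Together they took 1.697%, 2.035%, 2.037%, 1.978% and 1.103% of the counts in day 3 libraries 1 to 5, and 2.403%, 1.201% and 1.533% in day 7 libraries 1 to 3. In sham libraries 1 to 4 the shares were 2.402%, 1.507%, 1.807% and 1.422%. Day 7 library 1 and sham library 1 were the highest, day 3 library 5 and day 7 library 2 the lowest, and the 3 groups overlapped. The mean share was 1.77% ± 0.398 at day 3 (SD, n = 5), 1.71% ± 0.621 at day 7 (SD, n = 3) and 1.78% ± 0.444 in sham (SD, n = 4), so the groups differed by less than the spread between mice. With retrocopies included the shares were 3.44% ± 0.794, 3.29% ± 1.203 and 3.39% ± 0.780 in the same groups. In bulk tissue, fewer cells of a kind that is rich in ribosomes and less of this RNA per cell cannot be told apart.

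**Figure D2:**
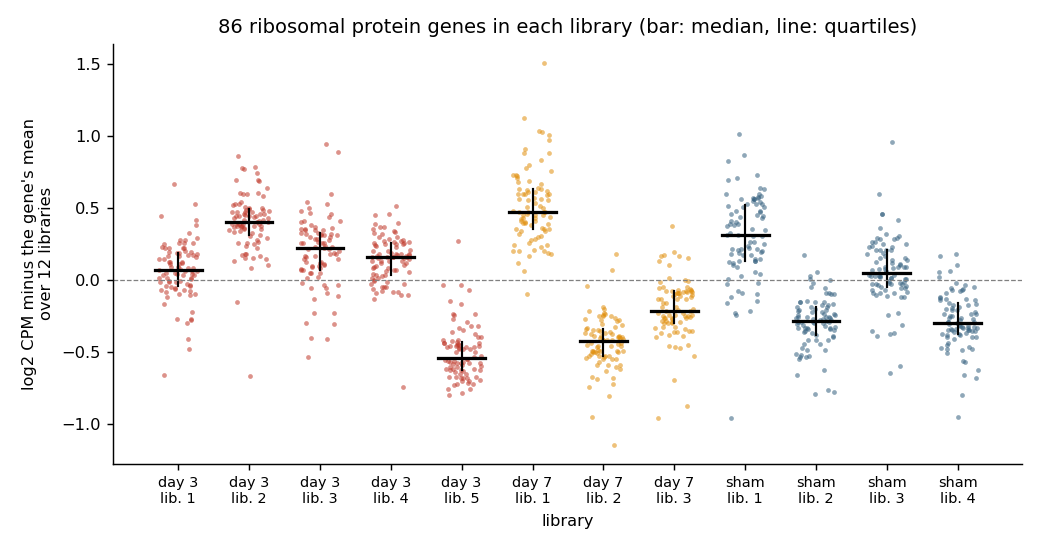
Level of each of the 86 genes in each library, as log2 CPM minus that gene's mean over the 12 libraries (vertical), 1 point a gene, by library (horizontal; red day 3, orange day 7, blue sham); thick bars are medians and thin lines quartiles. In 8 of the 12 libraries at least 74 of the 86 genes lie on one side of 0: medians run from -0.54 in day 3 library 5 to 0.48 in day 7 library 1, and every group has libraries above and below 0.

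The shift was shared by nearly the whole set. In day 7 library 1, 85 of the 86 genes lay above their own mean over the 12 libraries, in day 3 library 2 84, and in sham library 1 74. In day 3 library 5 only 1 gene did (Rps4l), in day 7 library 2 only 2, and in sham libraries 2 and 4 only 5 and 6. Day 7 library 1 was the highest library of all 12 for 40 genes and day 3 library 5 the lowest for 47. The SD of a gene's log2 CPM over the 12 libraries had a median of 0.381 for the ribosomal protein genes and 0.566 for all genes tested. It was highest, at 0.715, in Rpl12, which sits at the base of the stalk. Relative to the rest of the set, Rpl28 followed the other genes most closely, at a mean distance of 0.07 in log2 CPM, and the pseudogene Rps4l least, at 0.43.

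Adipocyte marker mRNA and mitochondrial RNA varied across the same libraries. The summed level of the 10 adipocyte markers was 31810, 34070, 26510, 28920 and 46440 CPM in day 3 libraries 1 to 5, and 19430, 53350 and 29590 CPM in day 7 libraries 1 to 3. In sham libraries 1 to 4 it was 26730, 28110, 52210 and 45640 CPM. The adipocyte sum was thus lowest in day 7 library 1, where ribosomal protein mRNA was highest, and among the highest in day 3 library 5 and day 7 library 2, where it was lowest; sham libraries 2 and 3 and day 7 library 3 did not follow this order. Mitochondrially encoded RNA took 8.247% of the counts in day 3 library 5 and 9.049% in day 7 library 2, against 3.644% to 6.561% in the other 10 libraries. Red blood cell markers summed to 1796 to 27790 CPM at day 3, 3943 to 13740 CPM at day 7 and 1474 to 4527 CPM in sham. The part of each of these in the ribosomal protein levels was not tested.

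At day 3 against sham, no ribosomal protein gene passed the test against the spread between mice. By edgeR's quasi-likelihood test 0 of 86 passed an adjusted p of 0.05, as did 0.00588% of all genes tested, which is the single gene Pttg1 (the securin gene, lower at day 3 with a log2 difference of -3.24, named after its value was seen). At an unadjusted p under 0.05 there were 3 of the 86 (3.49%), against 10.9% of all genes. DESeq2 and limma-voom with quality weights also called 0. Differences were small: the median log2 difference was 0.09, against -0.02 for all genes, with 64 genes positive and 22 negative, where 48.3% of all genes were positive. No gene separated the groups without overlap in either direction, whereas 1.58% of all genes did so upward and 2.14% downward. The median moved both ways with the method. It was 0.245 by limma-voom with quality weights (82 positive, 4 negative) and 0.25 with the replicate number as a block (78 and 8). It was -0.02 with library size alone (40 and 46; all genes -0.13), -0.03 with libraries scaled to these genes (37 and 49; all genes -0.11), and 0.03 with upper quartile scaling (50 and 36; all genes -0.08).

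**Figure D3:**
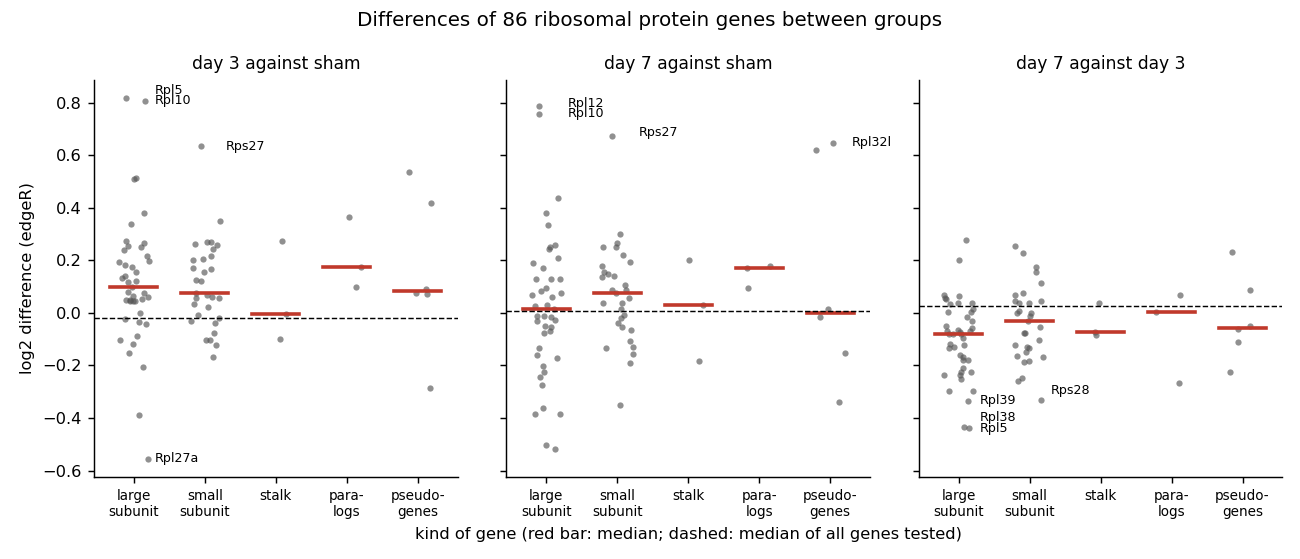
edgeR log2 difference (vertical) of each of the 86 genes in the 3 comparisons, by kind of gene (horizontal), 1 point a gene; red bars are medians of a kind and dashed lines the median of all genes tested. The medians of the 43 large and 31 small subunit genes are 0.10 and 0.07 for day 3 against sham; none of the points passed the adjusted threshold.

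The protein-coding genes with the largest positive differences at day 3 were Rpl5, Rpl10, Rps27 and Rpl17. Rpl5 (ENSMUSG00000058558, chr5:108048368-108056872, plus strand, mm39) encodes a large subunit protein that, with Rpl11 and 5S rRNA, also binds the p53 regulator MDM2 when ribosome assembly fails. Its level was 21.2, 26.6, 28.9, 18.8 and 11.8 CPM at day 3, against 14.3, 10.9, 14.6 and 8.88 CPM in sham. In 4 of 5 day 3 mice it lay above every sham mouse, and library 5 lay inside the sham range. The log2 difference of Rpl5 was 0.82 (SE 0.361, edgeR adjusted p = 0.444). With retrocopies added it was 0.14 (edgeR adjusted p = 0.852), from 844 ± 179 CPM at day 3 (SD, n = 5) and 756 ± 116 CPM in sham (SD, n = 4).

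Rpl10 (ENSMUSG00000008682, chrX:73314418-73316742, plus strand, mm39) encodes one of the last proteins to join the large subunit, in the cytoplasm. Rpl10 stood at 22.4, 26.6, 36.1, 24.2 and 11.7 CPM at day 3, against 17.6, 11.8, 14.3 and 11.7 CPM in sham. Again 4 day 3 mice were above all sham mice and library 5 was among them. Its log2 difference was 0.81 (SE 0.366, edgeR adjusted p = 0.453), and 0.42 (edgeR adjusted p = 0.598) with its retrocopies added. Rpl17, a protein of the exit tunnel, had 51.3, 64.4, 51.9, 55.4 and 25.9 CPM at day 3, against 39.7, 31.02, 38.96 and 29.6 CPM in sham. It repeated the pattern, with library 5 below every sham mouse, and gave a log2 difference of 0.51 (SE 0.272, edgeR adjusted p = 0.493). With retrocopies added, which hold all but 6.53% of its joint counts, it was 0.33 (edgeR adjusted p = 0.700).

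Rps27, a zinc finger protein of the small subunit, had a log2 difference of 0.63 (SE 0.382, edgeR adjusted p = 0.541). Counts at the gene were few and uncertain, at 5.36 ± 1.37 CPM at day 3 (SD, n = 5) and 3.45 ± 0.617 CPM in sham (SD, n = 4). Rpl3, which reaches towards the peptidyl transferase centre, stood at 230 ± 52.5 CPM at day 3 (SD, n = 5) and 176 ± 26.5 CPM in sham (SD, n = 4), a log2 difference of 0.38 (SE 0.248, edgeR adjusted p = 0.572).

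The gene with the smallest p was on the low side. Rpl27a (ENSMUSG00000046364, chr7:109118354-109121575, plus strand, mm39), a large subunit protein, had 35.7, 50.2, 43.4, 44.7 and 37.98 CPM at day 3, against 96.1, 44.4, 57.2 and 51.2 CPM in sham. Sham library 1 stood far above the rest, and day 3 libraries 2 and 4 lay within the sham range. The log2 difference of Rpl27a was -0.55 (SE 0.226, edgeR adjusted p = 0.426). It was -0.27 without sham library 1, and -0.08 (edgeR adjusted p = 0.916) with its retrocopies added, of which Gm7536 is identical over 444 bases. Rpl37, another large subunit protein, had the second lowest difference, -0.39 (SE 0.404, edgeR adjusted p = 0.741), which turned to 0.01 with its retrocopies added.

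**Figure D4:**
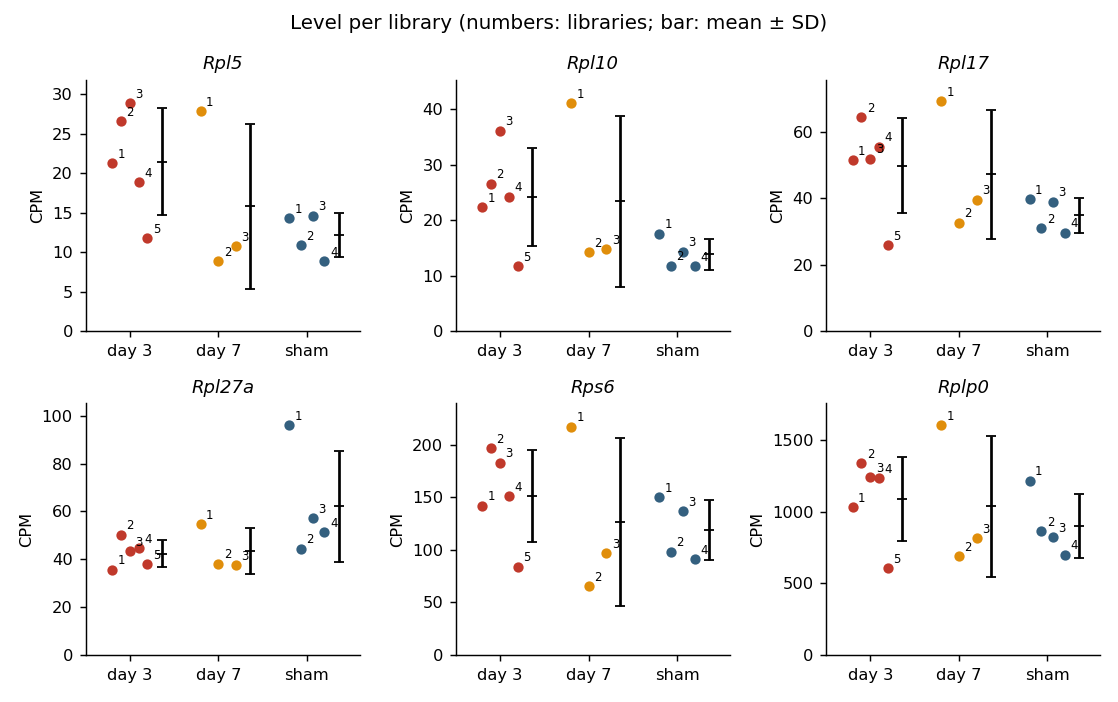
CPM of 6 ribosomal protein genes in each library (points, numbered by library; red day 3, orange day 7, blue sham), with the mean and SD of each group beside them; each axis starts at 0. For Rpl5, Rpl10 and Rpl17 day 3 libraries 1 to 4 and day 7 library 1 lie high and day 3 library 5 lies with sham, and for Rpl27a sham library 1 stands alone at 96.1 CPM.

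Without day 3 library 5 and day 7 library 1, Rpl10, Rpl5 and Rpl17 passed the test at day 3 and were higher. Their log2 differences were then 0.98, 0.97 and 0.68 (edgeR adjusted p = 0.0278, 0.0372 and 0.0345). Day 3 library 5 was the lowest day 3 library for each of them, so leaving it out raised these differences by construction. These 3 were the only ones of the 86 to pass in that fit, where 2.89% of 17349 genes passed upward and 2.9% downward. At an unadjusted p under 0.05 there were 13 of the 86 (15.1%), against 22.7% of all genes. The median of the 86 was 0.21 with 77 positive and 9 negative. Without sham library 4 and day 3 library 1 the median was 0.04, with 49 positive, 37 negative and 0 called. Leaving out single libraries kept the median positive, between 0.00 without day 3 library 2 and 0.24 without sham library 1.

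Day 7 against sham gave no separation either, and shares the sham mice with the day 3 comparison. By edgeR 0 of 86 genes passed, as did 0% of all genes; at an unadjusted p under 0.05 there were 0 of the 86 and 6.26% of all genes. DESeq2 and limma-voom called 0 of the 86. The median log2 difference was 0.04, against 0.01 for all genes, with 50 positive and 36 negative, and 50.7% of all genes positive. No gene separated the groups, while 2.83% of all genes did upward and 4.07% downward. With 3 mice at day 7, library 1 set most of these values: the median was -0.25 without it and 0.23 without library 2. The sign of the day 7 median also turned with upper quartile scaling (-0.03; 40 positive, 46 negative), library size alone (-0.06; 31 and 55), limma-voom (-0.05; 33 and 53), the replicate block (-0.04; 36 and 50) and without sham library 4 and day 3 library 1 (-0.05; 36 and 50).

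Rpl12 and Rpl10 had the largest positive differences at day 7. Rpl12 stood at 45.2, 10.8 and 12.3 CPM at day 7, against 22.9, 9.27, 12.4 and 8.15 CPM in sham. Library 1 alone exceeded the sham range, and the log2 difference was 0.79 (SE 0.505, edgeR adjusted p = 0.862), or -0.17 without that library. With retrocopies added the Rpl12 difference was 0.32 (edgeR adjusted p = 0.924). Rpl10 stood at 41.1, 14.3 and 14.8 CPM at day 7, with a log2 difference of 0.76 (SE 0.408, edgeR adjusted p = 0.83), which came to 0.10 without library 1 and 0.39 with retrocopies added (edgeR adjusted p = 0.881). Its other day 7 mice lay inside the sham range. Among protein-coding genes Rps27 (0.67, SE 0.428, edgeR adjusted p = 0.860) and Rpl17 (0.44, SE 0.305, edgeR adjusted p = 0.874) followed, also with library 1 highest: Rps27 had 9.33, 3.37 and 3.81 CPM and Rpl17 69.1, 32.6 and 39.6 CPM in day 7 libraries 1 to 3. With retrocopies added Rpl17 gave 0.11 (edgeR adjusted p = 0.977).

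Among the genes on the low side at day 7 were Rpl27a (-0.52, SE 0.261, edgeR adjusted p = 0.826), Rpl36a, Rpl37 and Rps21. Rpl27a had 54.6, 38.2 and 37.6 CPM at day 7, of which only library 1 lay inside the sham range. Rpl36a, a large subunit protein near the tRNA exit site, had 12.8, 8.66 and 9.52 CPM at day 7, against 22.4, 9.32, 15.02 and 11.7 CPM in sham, a log2 difference of -0.50 (SE 0.339, edgeR adjusted p = 0.867). Rps21, a small subunit protein whose values were all whole, had 57.2, 34.4 and 41.4 CPM at day 7, against 69.2, 39.9, 68.2 and 48.5 CPM in sham. Its log2 difference was -0.35 (SE 0.254, edgeR adjusted p = 0.879), and the groups overlapped. Rpl37 gave -0.39 (SE 0.465, edgeR adjusted p = 0.929). With retrocopies added, day 7 differences were -0.11 for Rpl27a, -0.33 for Rpl36a and -0.14 for Rpl37 (edgeR adjusted p = 0.968, 0.894 and 0.959).

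Between day 7 and day 3, edgeR called 0 of 86 genes and 0% of all genes, and at an unadjusted p under 0.05 there were 0 of the 86 and 3.34% of all genes. DESeq2 and limma-voom called 0 of the 86. The median log2 difference was -0.07, against 0.03 for all genes, with 29 positive and 57 negative. No gene separated the days (1.35% of all genes did upward and 1.37% downward). The adjusted p of all 86 genes was 0.999 by edgeR. With libraries scaled to these genes the median was 0.02, with all genes at 0.14, and 50 of the 86 genes positive. By limma-voom it was -0.28 (6 positive, 80 negative) and with the replicate block -0.31 (5 and 81).

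The lowest differences between the days were those of Rpl5 (-0.44, SE 0.393), Rpl38 (-0.44, SE 0.388) and Rpl39 (-0.33, SE 0.297). Rpl5 had 27.9, 8.86 and 10.8 CPM at day 7, against the 11.8 to 28.9 CPM of day 3. Rpl38, a large subunit protein needed in mouse embryos for translation of Hox mRNAs, had 15.4, 4.63 and 6.37 CPM at day 7, against 9.72, 15.7, 13.6, 11.8 and 8.82 CPM at day 3. In both genes day 7 library 1 stood with the higher day 3 mice and the other 2 day 7 mice below all of day 3. Rpl39, a small protein lining the exit tunnel, had 93.0, 57.2 and 69.8 CPM at day 7, against 81.3, 125, 112, 92.6 and 51.3 CPM at day 3. Rpl27 (-0.30, SE 0.299), Rpl35a (-0.24, SE 0.252), Rpl3 (-0.25, SE 0.270) and Rps28 (-0.33, SE 0.357) were also among the genes with the smallest p. With retrocopies added these differences came to -0.04 for Rpl5, -0.08 for Rpl27, -0.08 for Rpl35a, -0.14 for Rpl3 and -0.15 for Rps28. The highest differences were 0.28 for Rpl12 (SE 0.483), 0.25 for Rps10 (SE 0.276), a small subunit protein ubiquitinated at collided ribosomes, and 0.23 for the pseudogene Rpl32l (SE 0.535). With retrocopies added Rpl12 was at -0.01 and Rps10 at -0.02.

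Both doubted libraries enter this comparison, and the picture without them was different in size. Day 3 library 5 was the lowest day 3 library for 79 of the 86 genes, and day 7 library 1 the highest day 7 library for 85. Leaving them out moves the difference between the days downward in these genes by construction, so the values without them do not test a fall. With day 3 library 5 and day 7 library 1 left out the median log2 difference was -0.50, with 1 positive and 85 negative, against 0.00 for all genes. Of the 86, 32 (37.2%) then had an unadjusted p under 0.05, against 17.7% of all genes, and 0 passed the adjusted threshold, where 1.65% of all genes passed upward and 0.893% downward. Rpl5 came nearest, at -1.28 (edgeR adjusted p = 0.0517). Against sham, day 7 without these libraries had a median of -0.27, with 9 positive and 77 negative and 0 called, beside 0.0634% of all genes called upward and 0.0346% downward. Without sham library 4 and day 3 library 1 the median between the days was -0.07, with 31 positive, 55 negative and 0 called. Leaving out single libraries gave a median between -0.37 without day 7 library 1 and 0.12 without day 7 library 2.

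By role, the medians of the subunits lay close to each other, and their difference was not tested. At day 3 the median log2 difference was 0.10 for the large subunit (33 positive, 10 negative) and 0.07 for the small subunit (22 and 9). At day 7 against sham it was 0.01 (22 and 21) and 0.07 (20 and 11), and between day 7 and day 3 -0.08 (12 and 31) and -0.03 (12 and 19). The stalk proteins, which recruit the elongation factors, had medians of -0.01, 0.03 and -0.07 in the same order of comparisons. Their levels spread as widely within groups as those of the rest. Rplp0 stood at 1032, 1337, 1240, 1234 and 606 CPM at day 3, 1604, 691 and 815 CPM at day 7, and 1218, 863, 824 and 700 CPM in sham. Rplp1 averaged 436 ± 102 CPM at day 3 (SD, n = 5), 448 ± 128 CPM at day 7 (SD, n = 3) and 438 ± 127 CPM in sham (SD, n = 4). For Rplp2 the means were 187 ± 57.5, 176 ± 54.7 and 200 ± 49.7 CPM in the same groups.

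Several proteins have known duties beside their place in the ribosome. Rps6, the substrate of the S6 kinases below mTORC1, stood at 142, 197, 183, 151 and 84.0 CPM at day 3, 217, 65.2 and 96.5 CPM at day 7, and 150, 98.1, 137 and 90.8 CPM in sham. The groups overlapped, and 13.8% of its joint counts stood at the gene, the rest mostly at Rps6-ps4. With retrocopies added Rps6 averaged 1117 ± 350 CPM at day 3 (SD, n = 5), 916 ± 519 CPM at day 7 (SD, n = 3) and 830 ± 132 CPM in sham (SD, n = 4). Rpl11, the partner of Rpl5 in the 5S complex, averaged 41.1 ± 11.3, 35.2 ± 10.5 and 41.7 ± 7.38 CPM in day 3, day 7 and sham mice. With retrocopies added Rpl11 averaged 498 ± 97.5, 481 ± 84.5 and 476 ± 94.5 CPM. Rps27a, made as a fusion with ubiquitin, averaged 38.2 ± 8.63, 38.4 ± 20.01 and 32.3 ± 11.1 CPM, and with retrocopies 419 ± 84.3, 376 ± 150.0 and 349 ± 71.0 CPM. Rpsa, also known as the laminin receptor, averaged 677 ± 182, 713 ± 231 and 662 ± 233 CPM, and Rpl13a 582 ± 153, 597 ± 226 and 558 ± 159 CPM in the same groups. None of these passed the test in any of the 3 comparisons.

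The 3 paralogs are set beside their parents within the same libraries. Rpl22l1, whose mRNA is held down by Rpl22 in mice, stood at 71.0, 114, 87.5, 85.0 and 38.1 CPM at day 3, 105, 40.9 and 51.3 CPM at day 7, and 86.3, 56.6, 50.6 and 52.2 CPM in sham. Its parent Rpl22 averaged 221 ± 30.2 CPM at day 3 (SD, n = 5), 201 ± 29.4 CPM at day 7 (SD, n = 3) and 226 ± 40.1 CPM in sham (SD, n = 4). The SD in log2 CPM over the 12 libraries was 0.526 for Rpl22l1 and 0.211 for Rpl22, and their mean distances from the other ribosomal protein genes were 0.19 and 0.17. Rps27l, a p53 target, averaged 64.4 ± 5.97, 64.6 ± 12.2 and 57.1 ± 9.24 CPM in day 3, day 7 and sham mice. Per kilobase it stood at 124 CPM per kb, against 10.5 CPM per kb at Rps27, whose counts are uncertain as described above. Rpl7l1 averaged 71.3 ± 17.3, 74.7 ± 6.06 and 66.5 ± 5.50 CPM, and Rpl7 635 ± 131, 583 ± 141 and 594 ± 65.5 CPM. The 3 paralogs had positive differences against sham at day 3 (median 0.17) and day 7 (median 0.17), and none passed.

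Among the 6 annotated pseudogenes, Rps3a2 and Rps12l1 were assigned counts as high as those of protein-coding genes. Rps3a2 is 99.5% identical to Rps3a1 over 792 aligned bases, and Rps12l1 100% identical to Rps12 over 399. The values of each pseudogene were not whole in 11 libraries. How reads were split between copy and parent is not known, so the levels set side by side here are uncertain. Rps3a2 averaged 546 ± 123, 506 ± 172 and 512 ± 59.4 CPM in day 3, day 7 and sham mice, and Rps3a1, the protein-coding copy, 558 ± 129, 470 ± 183 and 537 ± 75.9 CPM. Rps12l1 averaged 354 ± 92.6, 339 ± 115 and 335 ± 98.0 CPM, where Rps12 itself had 44.3 ± 9.47, 46.4 ± 17.5 and 45.2 ± 12.9 CPM. Rpl6l averaged 150 ± 38.4, 128 ± 51.4 and 143 ± 27.8 CPM, and its parent Rpl6 192 ± 44.2, 179 ± 60.9 and 172 ± 31.5 CPM. Rpl32l was scarce, at 2.50 ± 0.944, 2.94 ± 1.49 and 1.87 ± 0.628 CPM, beside 340 ± 82.1, 341 ± 98.2 and 288 ± 45.8 CPM for Rpl32. Rps3a3 had 13.7, 15.9, 9.12, 9.27 and 7.49 CPM at day 3, 19.4, 6.94 and 9.06 CPM at day 7, and 4.82, 6.78, 9.16 and 9.91 CPM in sham, with log2 differences against sham of 0.54 at day 3 (SE 0.362, edgeR adjusted p = 0.586) and 0.62 at day 7 (SE 0.405, edgeR adjusted p = 0.863). Rps4l, a copy of the X-linked Rps4x, went its own way. It had 18.7, 14.2, 28.03, 20.95 and 27.3 CPM at day 3, 21.1, 25.6 and 16.5 CPM at day 7, and 35.1, 25.5, 27.9 and 18.01 CPM in sham. Its log2 difference at day 3 was -0.29 (SE 0.252, edgeR adjusted p = 0.683), while Rps4x averaged 643 ± 139, 579 ± 171 and 573 ± 80.3 CPM in the 3 groups.

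Other parts of the translation machinery were examined as lists. Of 37 genes of ribosome biogenesis, the nucleolar and export factors that build the subunits, 35 had positive log2 differences against sham at day 3 (median 0.41) and 35 at day 7 (median 0.50), and 0 passed the adjusted threshold in either; 9 and 5 of them had an unadjusted p under 0.05, all positive, beside 10.9% and 6.26% of all genes in either direction. Nmd3, which escorts the large subunit out of the nucleus and leaves it when Rpl10 is loaded, averaged 27.3 ± 7.26 CPM at day 3 (SD, n = 5) and 16.0 ± 1.30 CPM in sham (SD, n = 4), a log2 difference of 0.77 (SE 0.245, edgeR adjusted p = 0.403). All 5 day 3 mice, from 18.1 to 36.2 CPM, lay above the sham range of 14.9 to 17.5 CPM. Bop1, needed for maturation of the large subunit rRNAs, averaged 33.1 ± 3.17 CPM at day 3, 41.1 ± 5.37 CPM at day 7 (SD, n = 3) and 24.1 ± 3.67 CPM in sham, with log2 differences of 0.46 and 0.77 (SE 0.160 and 0.179, edgeR adjusted p = 0.408 and 0.564). At both days the lowest hepatectomised mouse, at 29.6 and 35.7 CPM, stood above the highest sham mouse at 28.9 CPM. Of all genes tested, 1.58% separated upward from sham in this way at day 3 and 2.83% at day 7. Nmd3 and Bop1 were named for their small p within the list. Fbl, the methyltransferase of rRNA, Mrto4, Ddx21, Taf1d and Rrn3, the last a factor of RNA polymerase I, were positive and did not pass.

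**Figure D5:**
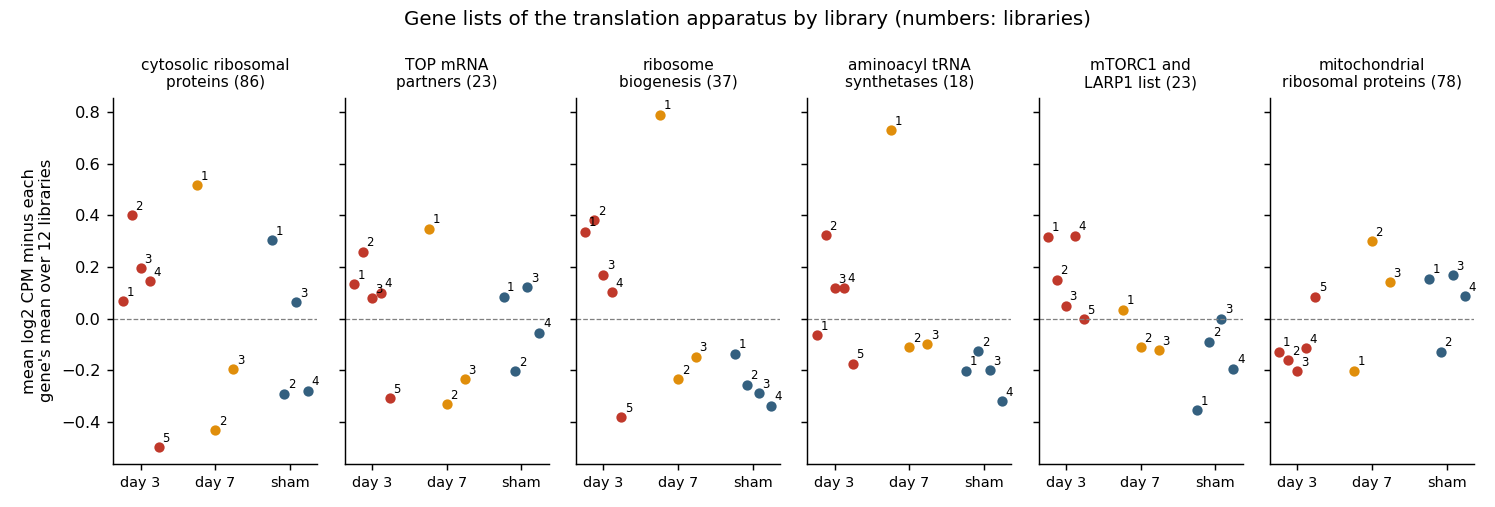
Mean over a list's genes of log2 CPM minus the gene's own mean (vertical) for the 86 ribosomal protein genes and 5 lists, with the number of genes in brackets, by group (horizontal; red day 3, orange day 7, blue sham; points numbered by library). For ribosome biogenesis the sham mice lie between -0.34 and -0.14 and day 3 libraries 1 to 4 between 0.10 and 0.38, with day 3 library 5 at -0.38 and day 7 library 1 at 0.79; for ribosomal proteins sham library 1 lies at 0.30.

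The biogenesis list followed the doubted libraries too. Its mean level relative to each gene's own mean was 0.34, 0.38, 0.17, 0.10 and -0.38 in day 3 libraries 1 to 5, and 0.79, -0.24 and -0.15 in day 7 libraries 1 to 3, in log2 CPM. In sham libraries 1 to 4 it was -0.14, -0.26, -0.29 and -0.34. Sham library 1, high for ribosomal proteins, was not high here. Without day 3 library 5 and day 7 library 1, 8 of the 37 passed at day 3 and were higher (Ddx21, Nmd3, Mrto4, Taf1d, Imp3, Nop14, Tsr1 and Gnl3) beside 2.89% of all genes; at day 7 the median was 0.03, with 22 positive and 0 called. Between day 7 and day 3 in that fit, 34 of 37 were negative (median -0.47) and Gnl3 passed and was lower, beside 0.893% of all genes. Without sham library 4 and day 3 library 1, 0 of the 37 passed in any comparison, with 32 positive at day 3 (median 0.30), 36 at day 7 (median 0.48) and 28 between the days (median 0.14).

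Cytosolic aminoacyl-tRNA synthetases, which charge tRNAs, were positive against sham for 15 of 18 measured genes at day 3 (median 0.28) and for 18 of 18 at day 7 (median 0.47), with 0 passing. Iars, the isoleucine enzyme, averaged 53.8 ± 12.4 CPM at day 3 (SD, n = 5), 65.4 ± 33.6 CPM at day 7 (SD, n = 3) and 32.8 ± 7.99 CPM in sham (SD, n = 4), with log2 differences of 0.72 and 1.00 (SE 0.285 and 0.318, edgeR adjusted p = 0.421 and 0.687). Gars, the glycine enzyme, gave 0.73 and 0.85 (SE 0.308 and 0.344, edgeR adjusted p = 0.430 and 0.768). Without day 3 library 5 and day 7 library 1, Tars, Gars and Iars passed at day 3 and were higher, beside 2.89% of all genes. At day 7 in that fit, 13 of the 18 were positive and 5 negative (median 0.09), with 0 passing. The list's mean level relative to each gene's own mean was 0.73, -0.11 and -0.10 in day 7 libraries 1 to 3. In sham it lay between -0.319 and -0.125, in log2 CPM. Without sham library 4 and day 3 library 1, 0 of the 18 passed, with 16 positive at day 3 (median 0.25) and 18 at day 7 (median 0.39).

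The partners of ribosomal proteins among TOP mRNAs, mostly translation factors, gave a median of 0.15 at day 3 (17 of 23 positive) and 0.03 at day 7 (13 of 23). Eif4a2, the second form of the cap-complex helicase, stood apart from them: it averaged 285 ± 80.2 CPM at day 3 (SD, n = 5), 258 ± 80.9 CPM at day 7 (SD, n = 3) and 470 ± 118 CPM in sham (SD, n = 4). Its log2 differences were -0.72 and -0.87 (SE 0.263 and 0.307, edgeR adjusted p = 0.411 and 0.721), and at day 3 it passed, lower, without day 3 library 5 and day 7 library 1, beside 2.9% of all genes. None of the 23 passed (0 by edgeR) in the fit that omits sham library 4 and day 3 library 1. Eef1d, a subunit of the exchange factor for elongation factor 1, gave -0.45 and -0.34 (SE 0.176 and 0.203, edgeR adjusted p = 0.421 and 0.852). On the positive side, Eif3e gave 0.49 at day 3 (SE 0.228, edgeR adjusted p = 0.458). Cct2 gave 0.40 and 0.42 (SE 0.205 and 0.231, edgeR adjusted p = 0.482 and 0.835). Nap1l1 gave -0.62 at day 7 (SE 0.289, edgeR adjusted p = 0.799).

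In the list of mTORC1, LARP1 and growth regulators, 16 of 23 genes were positive at day 3 (median 0.18) and 12 of 23 at day 7 (median 0.00), with 0 passing. Larp4, a poly(A)-binding relative of LARP1, averaged 119 ± 39.4 CPM at day 3 (SD, n = 5), 102 ± 45.6 CPM at day 7 (SD, n = 3) and 58.9 ± 4.40 CPM in sham (SD, n = 4), with log2 differences of 1.01 and 0.80 (SE 0.290 and 0.321, edgeR adjusted p = 0.403 and 0.768). Ddit4, a stress-induced inhibitor of mTORC1, averaged 228 ± 126, 141 ± 139 and 53.3 ± 32.0 CPM in day 3, day 7 and sham mice, with differences of 2.10 and 1.40 (SE 0.651 and 0.693, edgeR adjusted p = 0.403 and 0.826). Rheb, the GTPase that activates mTORC1, gave 0.58 at day 3 (SE 0.200, edgeR adjusted p = 0.408). Myc, the transcription factor that drives ribosome biogenesis, averaged 66.7 ± 33.9, 75.2 ± 85.8 and 19.7 ± 8.67 CPM in the same groups, with differences of 1.76 and 1.93 (SE 0.626 and 0.681, edgeR adjusted p = 0.409 and 0.721). Without day 3 library 5 and day 7 library 1, Ddit4, Myc, Larp4 and Rheb passed at day 3 and were higher, beside 2.89% of all genes. Without sham library 4 and day 3 library 1, 0 of the 23 passed, with 17 positive at day 3 (median 0.17).

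The proteins of the mitochondrial ribosome, encoded by other nuclear genes, leaned the other way at day 3. Of 78 genes, 23 were positive and 55 negative at day 3 (median -0.15), 42 and 36 at day 7 (median 0.04), and 66 and 12 between day 7 and day 3 (median 0.16), with 0 passing in each. Mrpl18, which also takes 5S rRNA to mitochondria in human cells, averaged 28.7 ± 5.14 CPM at day 3 (SD, n = 5) and 42.8 ± 3.91 CPM in sham (SD, n = 4). For Mrpl18 all day 3 mice lay below all sham mice, as for 2.14% of all genes tested. Its log2 difference was -0.58 (SE 0.194, edgeR adjusted p = 0.403), and Mrpl34 gave -0.72 (SE 0.247, edgeR adjusted p = 0.403). Mrps6 averaged 41.3 ± 8.33 CPM at day 7 (SD, n = 3) and 79.6 ± 26.6 CPM in sham, a log2 difference of -0.95 (SE 0.289, edgeR adjusted p = 0.632). The next genes by p at day 7 were positive. Mrpl20, Mrps18b and Mrpl16 gave 0.50, 0.66 and 0.48 (SE 0.177, 0.267 and 0.244, edgeR adjusted p = 0.721, 0.768 and 0.826). Without day 3 library 5 and day 7 library 1, Mrpl49, Mrpl34, Mrps21, Mrpl18 and Mrpl42 passed at day 3 and were lower, beside 2.9% of all genes. Between day 7 and day 3 in that fit, Mrpl49, Mrpl34, Mrps21 and Mrpl42 passed and were higher, beside 1.65% of all genes. There 69 of the 78 were positive (median 0.36). At day 7 against sham 55 were positive (median 0.15), with 0 passing. Leaving out sham library 4 and day 3 library 1, 0 of the 78 passed, with 60 negative at day 3 (median -0.12). In day 3 library 5, where cytosolic ribosomal protein mRNAs were lowest, the mitochondrial list stood above the other 4 day 3 libraries.

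In the authors' deposited table, 0 of the 86 genes had a false discovery rate under 0.05 in either comparison with sham; the lowest was 0.397 at day 3 and 0.891 at day 7. The same table gave median log2 ratios of 0.09 and 0.04, with 63 and 50 genes positive.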

How the data were processed

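Adipose RNA-seq libraries of 12 mice were analysed from 1 table. The submitters' processing notes name Partek, STAR, DESeq2 and mm39, with no role or version. The authors deposited expected counts per gene and sample, a normalized count signal (size-factor scaled, with group means and maxima), and their log2 ratios, p-values and false discovery rates. In that deposited table the per-sample values stand on lines that do not line up with the gene names: 22151 gene lines but 18086 value lines, of which 21 stood beside their own gene. Each value line was joined to the gene whose deposited mean, maximum and geometric mean signal it gave back, after a factor per sample (relative tolerance 3e-05 for mean and maximum): 18070 matched 1 gene and 16 were settled by their neighbours, with 0 breaks in order. The 4065 genes without values hold 0.0784% of the normalized counts. The check of group means within 5% held for 100% of the genes examined in each group.

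Expected counts as deposited by the authors were rounded, filtered (minimum count 10, edgeR's filterByExpr), scaled by TMM and tested by edgeR's quasi-likelihood test over all 12 libraries with Benjamini-Hochberg adjustment over all genes (R 4.3.3, edgeR 4.0.16). DESeq2 1.42.0 and limma-voom 3.58.1, other scalings, libraries left out, a replicate block and added retrocopies were alternatives. CPM are TMM-scaled. A value was called not whole beyond 0.05. Retrocopies are annotated pseudogenes whose GENCODE transcript matched by blastn (80% identity, 100 bases). Length is the middle length of a gene's reference transcripts. The table's coordinates are mm39 and the promoter sequences GRCm38.p6, and the builds were not mixed. The labels call the RNA polyA and the design text speaks of total RNA, and strandedness is not given in the sources used here, so overlapping antisense reads cannot be told apart. The test was checked on simulated counts. Genes named are, where none passed, the 8 with the smallest p and the 3 highest and 3 lowest differences in each comparison, fixed well-known members, and every paralog with its parent; from each pathway list up to 4 genes with the smallest p at each day. The paralog list also held Rps4l, Rps12l1, Rpl6l and Rpl32l, set apart here as annotated pseudogenes. The members and lists were chosen with earlier results of these data known. Values of some single genes are not reported here.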

Additional observations from a re-analysis of the deposited data

Results flagged for a closer look

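In 104 groups of values from day 3 and sham mice (48 members and library shares), 2 held a library far from the others of its group. Chance flags about 1 in 20 groups. Day 7 groups, with 3 mice each, were not examined in this way. Retrocopies of ribosomal protein genes took 0.989% of the counts in day 3 library 5, against 1.662% to 1.923% in the other day 3 libraries. Rpl22l1 had 86.28 CPM in sham library 1, against 50.63 to 56.55 CPM in the other sham libraries.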

How the results depend on the processing

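No ribosomal protein gene was called under DESeq2, voom, any scaling or any single library left out; 3 were called without day 3 library 5 and day 7 library 1. Over all genes, day 3 against sham gave 121 calls by DESeq2 (77 higher, 44 lower), 0 by voom, 0 with the replicate block, 0 without sham library 4 and day 3 library 1, 1005 without day 3 library 5 and day 7 library 1, and 0 to 2 leaving out 1 library. Day 7 against sham gave 68 by DESeq2, 15 by voom, 17 without day 3 library 5 and day 7 library 1, and 0 to 3 leaving out 1 library. Day 7 against day 3 gave 22, 2, 441 and 0 to 4 in the same order. The cause was not tested.

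Medians over the 86 genes ranged, leaving out 1 library, from 0.00428 to 0.241 at day 3, -0.252 to 0.226 at day 7 and -0.368 to 0.124 between the days, where leaving out both libraries gave -0.501. The share of counts differed by -0.135 to 0.191, -0.418 to 0.184 and -0.403 to 0.198 percentage points.

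Signs turned for few named genes. With retrocopies added Rpl37 at day 3 was 0.0122, and between the days Rpl12 was -0.00976 and Rps10 -0.0224; with pseudogenes of their own symbol added Rpl35a was 0.00613 and Rps10 -0.0213. Without day 3 library 5 and day 7 library 1, Rpl12 was -0.192 at day 7 and, between the days, Rpl12 was -0.837, Rps10 -0.0388 and Rpl32l -0.298. Between the days Rpl12 was -0.458 by voom. Leaving out 1 library gave Rpl12 -0.166 to 1.19 at day 7 and -0.683 to 0.614 between the days, and Rpl32l -0.232 to 0.503.

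Deviations of same-numbered mice from their group means correlated at -0.371 to 0.187. Mice of different numbers were not compared and the labels state no pairing, so whether the numbers pair mice was not settled. The replicate block gave medians of 0.253, -0.0446 and -0.309 and Rpl12 between the days -0.317.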

Other observations

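Some ribosomal protein genes lie outside the symbol pattern. Rack1, a scaffold on the small subunit, averaged 724 ± 211 CPM at day 3 (SD, n = 5), 736 ± 392.2 CPM at day 7 (SD, n = 3) and 549 ± 70.5 CPM in sham (SD, n = 4), with log2 differences of 0.40 and 0.42 (SE 0.321 and 0.361, edgeR adjusted p = 0.650 and 0.888). Rpl36al gave 0.12 at day 3 and 0.09 at day 7, and Fau -0.0024 and 0.08.

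Among 15 genes of ribosome surveillance and turnover, 11 were positive at day 3 (median 0.13) and 11 at day 7 (median 0.16), with 0 passing by edgeR and 1 with an unadjusted p under 0.05 at each day. Nufip1, a receptor for ribosome autophagy in human cells, averaged 17.3 ± 6.18 CPM at day 3 and 9.78 ± 2.95 CPM in sham, a log2 difference of 0.82 (SE 0.344, edgeR adjusted p = 0.428). Habp4 averaged 23.1 ± 5.03 CPM at day 7 and 34.8 ± 7.95 CPM in sham, a log2 difference of -0.59 (SE 0.237, edgeR adjusted p = 0.768). Mdm2, the p53 regulator that free Rpl5 and Rpl11 can bind, gave 0.61 at day 7 (SE 0.328, edgeR adjusted p = 0.83).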
